A study of Mus musculus with 10 samples.

Results

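The platelet surface receptors are the proteins by which a platelet binds an injured vessel wall, and 9 of their genes were followed here, namely Gp1ba, Gp1bb, Gp5, Gp9, Itga2b, Itgb3, Gp6, Clec1b and Treml1. They were chosen by name from the 55359 genes of the deposited table, and each matched 1 row. The RNA came from bone marrow cells depleted of mature lineages (Lin−). Of the libraries, 5 came from Dhx9f/f mice (WT), which carry floxed alleles of the helicase gene Dhx9 and no Cre. The other 5 came from Dhx9f/f;MX1 mice (cKO), which carry the same alleles and Cre recombinase under the Mx1 promoter. That promoter answers to interferon in many cell types, and Cre is switched on with poly(I:C), a double-stranded RNA mimic. The study's methods give poly(I:C) to MX1-Cre mice and count the day of analysis from its first dose, and other experiments of the study used Dhx9f/f marrow taken after such injections. Whether the sequenced WT mice had them is not stated for these libraries, and if they did not, genotype and treatment cannot be told apart. The age of these mice is not given either. Each library is named by its label and replicate number, and lists of 5 values run from replicate 1 to 5.

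Platelets are shed by megakaryocytes, which transcribe the receptor genes as they mature, so that in whole marrow these messages come chiefly from megakaryocytes and their progenitors. The GPIb-IX-V complex catches von Willebrand factor under flow, glycoprotein VI (GPVI) and the lectin receptor encoded by Clec1b signal through the kinase Syk, and integrin αIIbβ3 then binds fibrinogen and links platelets to each other. The protein product of Itga2b, CD41, appears early in the megakaryocyte lineage and is also found on some stem and progenitor cells, whereas GPVI and the complete GPIb-IX-V complex mark more mature cells. Antibody to CD41 was part of a lineage cocktail that the study used for flow cytometry, which would remove CD41+ cells. The RNA came from cells separated with a depletion kit, whose antibodies the sources used here do not list, so how many CD41+ cells remained is not known.

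Values are FPKM, fragments scaled to the length of the gene and to the depth of the library. The depth read back from these values was 13838270 to 17191893 fragments per library for cKO and 15043378 to 18707751 for WT. The targeted gene went against the labels, as Dhx9 was at 130.82 to 156.49 FPKM in cKO and at 65.43 to 72.42 in WT, and every direction below is between libraries labelled cKO and libraries labelled WT. A value over the whole gene does not show whether the floxed exons were lost. Xist was above 1 FPKM in libraries WT 3, WT 4 and WT 5 and in no other, and Ddx3y, on the Y chromosome, was at most 0.05 FPKM in those 3 and at least 19.66 in the other 7. Library WT 1 stood apart from the other WT libraries, being the lowest of the 5 for all 9 receptor genes, and the receptor results are given with and without it. In bulk RNA, fewer cells of a type and less RNA per cell cannot be told apart.

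Of the 9 receptor genes, 8 fell in the libraries labelled cKO and Gp5 was not called. Calls required an adjusted p under 0.05 from limma on log2(FPKM + 0.1) and a fold change of at least 2, a rule that called 16.8% of the 18742 genes tested lower and 4.6% higher. The median log2 fold change of the 9 genes was −2.06, and that of all genes tested was −0.11. That of all genes moved to −0.01 with median-ratio scaling and to 0.10 with quantile normalization, which also moved the higher share of all calls from 21.5% to 41.3%. In 7 of the 9 genes every WT library lay above every library labelled cKO, which held for 21.6% of all genes tested. Without library WT 1, 8 of 9 were again called lower (15.7% of all genes), and the remaining 4 WT libraries lay above all 5 of cKO for all 9 genes (22.8% of all genes). The log2 fold changes were then −1.96 for Gp1ba, −2.44 for Gp9, −0.98 for Gp5, −1.997 for Gp1bb, −2.09 for Itga2b, −2.39 for Itgb3, −3.94 for Gp6, −3.35 for Clec1b and −3.53 for Treml1, each lower than with that library. As library WT 1 was the lowest WT library of all 9 genes, leaving it out could only lower these values and widen the separation. It was not picked as the lowest for genes at large, so their shares are no like measure. Among the libraries with Xist under 1 FPKM, which leaves WT 1 and WT 2 against the 5 of cKO, 5 of 9 were called (12.2% of all genes), and Gp1ba (adjusted p = 0.0512), Gp1bb (adjusted p = 0.182) and Itgb3 (adjusted p = 0.0526) were not.

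**Figure D1:**
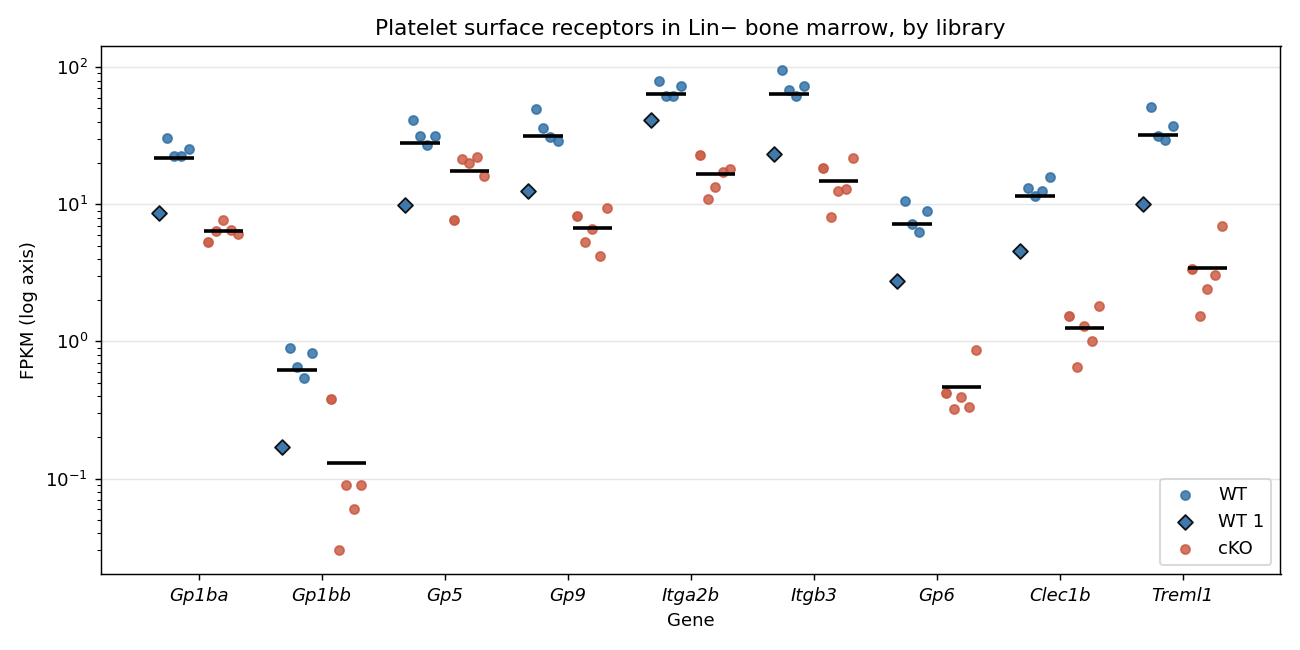
FPKM of the 9 receptor genes in each library on a log axis, with WT in blue, library WT 1 as a diamond, cKO in red and the mean of each label as a bar. The points of the 2 labels are separate for 7 genes and overlap for Gp1bb and Gp5, and library WT 1 is the lowest WT point of every gene.

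The GPIb-IX-V complex was examined first. Gp1ba (ENSMUSG00000050675, chromosome 11 of GRCm39 from 70529948 to 70532862, plus strand) encodes the chain that holds the binding site for von Willebrand factor. It was at 8.66, 30.46, 22.49, 22.34 and 25.34 FPKM in WT and at 5.29, 6.38, 7.75, 6.51 and 6.1 in cKO. The libraries labelled cKO were close to each other and all below library WT 1. Gp1ba fell by 1.65 on the log2 scale (SE 0.285, adjusted p = 9.02e-04), from 21.9 ± 8.08 to 6.41 ± 0.888 FPKM (SD, n = 5 each). Its span is shared with Slc25a11 on the opposite strand, at 28.01 to 29.95 FPKM in WT and 14.86 to 22.25 in cKO, but no exon base is shared.

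Gp9 (ENSMUSG00000030054, chromosome 6 from 87755047 to 87756750, plus strand) encodes the small chain without which the complex is not brought to the surface. It was at 12.61, 49.28, 36.2, 30.88 and 29.13 FPKM in WT and at 8.28, 5.28, 6.58, 4.18 and 9.48 in cKO. Again all WT libraries lay above all of cKO, the closest being WT 1 and cKO 5. The fall was by 2.14 on the log2 scale (SE 0.337, adjusted p = 5.42e-04), from 31.6 ± 13.2 to 6.76 ± 2.16 FPKM (SD, n = 5 each).

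Gp5 (ENSMUSG00000047953, chromosome 16 from 30126502 to 30129631, minus strand) encodes a chain of the complex that thrombin cleaves. It was at 9.81, 41.12, 31.38, 27.1 and 31.35 FPKM in WT and at 7.66, 21.55, 19.97, 22.07 and 16.07 in cKO. Here the labels overlapped, since library WT 1 lay below 4 of the 5 libraries labelled cKO, and library cKO 1 lay apart below the others of its label. The log2 fold change was −0.64 (95% interval −1.51 to 0.23, adjusted p = 0.213), between means of 28.2 ± 11.5 and 17.5 ± 5.96 FPKM (SD, n = 5 each), with p = 0.222 by a two-sided exact permutation test. The interval does not leave out a fall of 1 on the log2 scale. Without library WT 1 the log2 fold change was −0.98 (adjusted p = 0.0227), short of the fold limit, and without library cKO 1 it was −0.37 (adjusted p = 0.421). With the replicate number as a block in limma, the log2 fold change of −0.64 had an SE of 0.119 (adjusted p = 0.00569), also short of the fold limit.

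Gp1bb (ENSMUSG00000050761, chromosome 16 from 18439067 to 18441153, minus strand) encodes the chain linked by a disulfide bond to that of Gp1ba. It was at 0.17, 0.9, 0.65, 0.54 and 0.83 FPKM in WT and at 0.38, 0.03, 0.09, 0.06 and 0.09 in cKO. These are the lowest values of the 9 genes and the labels overlap, as library cKO 1 lay above library WT 1. They rest on 6 to 31 fragments per WT library and 1 to 11 per library labelled cKO, 105 and 20 in all, of which cKO 1 gave 11. Per depth, the cKO sum was 20.2% of that of WT (exact 95% interval 11.8% to 32.7%, counting error only), and limma gave a log2 fold change of −1.68 (SE 0.448, adjusted p = 0.0105). The call was lost with a pseudocount of 1, with quantile normalization (adjusted p = 0.0532) and with Xist above 1 FPKM as a covariate (adjusted p = 0.115). All of its exon bases (100%) also lie in exons of genes on the same strand, Septin5 (at most 0.3 FPKM in any library) and Gm49601 (at most 0.15), and the part of that overlap in its low level was not tested.

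The stretches upstream of 3 genes of the complex are shown because Gp1ba and Gp9 were called lower and Gp5 was not, and that of Gp6 because it had the lowest cKO mean as a percentage of that of WT. Each is the 250 bases before the gene start from RefSeq on GRCm38.p6, read 5′ to 3′ on the gene's strand. Capitals mark the GATA hexamers AGATAA and TGATAA and the ETS hexamers CGGAAG and AGGAAG, on either strand, and no GATA match overlaps an ETS match in them.
Gp1ba (chr11:70638872-70639121, plus strand): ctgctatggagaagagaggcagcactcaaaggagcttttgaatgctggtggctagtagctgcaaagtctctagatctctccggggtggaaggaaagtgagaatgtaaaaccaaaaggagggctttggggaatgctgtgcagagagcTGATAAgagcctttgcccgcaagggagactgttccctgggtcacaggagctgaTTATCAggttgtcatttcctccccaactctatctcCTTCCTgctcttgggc
Gp5 (chr16:30310782-30311031, minus strand): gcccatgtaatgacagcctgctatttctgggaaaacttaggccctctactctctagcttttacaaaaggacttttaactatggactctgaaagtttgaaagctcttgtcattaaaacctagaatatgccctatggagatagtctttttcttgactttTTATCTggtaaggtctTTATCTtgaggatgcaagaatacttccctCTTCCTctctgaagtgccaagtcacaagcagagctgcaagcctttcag
Gp9 (chr6:87777820-87778069, plus strand): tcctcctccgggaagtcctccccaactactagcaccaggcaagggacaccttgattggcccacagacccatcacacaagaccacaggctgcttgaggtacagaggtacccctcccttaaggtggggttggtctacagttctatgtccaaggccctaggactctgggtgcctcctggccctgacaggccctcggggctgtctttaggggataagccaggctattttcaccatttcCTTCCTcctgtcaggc
Gp6 (chr7:4397745-4397994, minus strand): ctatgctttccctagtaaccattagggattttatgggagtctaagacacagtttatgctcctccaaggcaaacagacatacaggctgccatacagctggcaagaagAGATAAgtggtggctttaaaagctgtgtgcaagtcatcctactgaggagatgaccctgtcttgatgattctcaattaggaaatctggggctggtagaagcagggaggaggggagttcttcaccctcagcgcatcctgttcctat
Gp1ba, which was called lower, and Gp5, which was not, each hold 2 GATA hexamers and 1 ETS hexamer, at 46 to 104 and 72 to 93 bases before the start for GATA and at 11 to 16 and 43 to 48 for ETS. Gp9 holds an ETS hexamer at the same 11 to 16 bases and no GATA hexamer, and Gp6 holds 1 GATA hexamer and no ETS hexamer. Windows were found for 8 of the 9 receptor genes, all but Itgb3. A GATA hexamer was in 4 of the 8 (Clec1b, Gp6, Gp1ba and Gp5) and in 16.6% of all 32851 windows of this length, and an ETS hexamer in 5 of the 8 (Gp9, Gp1ba, Itga2b, Gp1bb and Gp5) and in 39.2%. Both kinds stood together in Gp1ba and Gp5 and in 5.49% of all windows. The RUNX hexamer TGTGGT was in the window of Gp9 and in 14.05% of all, and the NF-E2 and AP-1 sequence TGAGTCA was in 0 of 8 and in 4.46%. These matches describe the letters of the windows and are not binding sites.

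Integrin αIIbβ3 had the most abundant messages of the receptors in WT. Itga2b (ENSMUSG00000034664, chromosome 11 from 102341397 to 102360955, minus strand) encodes the αIIb chain. It was at 41.36, 79.21, 61.49, 61.89 and 72.47 FPKM in WT and at 22.88, 11, 13.32, 17.11 and 18.24 in cKO. Library WT 1 was at 60.2% of the mean of the other WT libraries, nearer to them than for any other receptor gene. Itga2b fell by 1.94 on the log2 scale (SE 0.213, adjusted p = 1.04e-04), from 63.3 ± 14.4 to 16.5 ± 4.60 FPKM (SD, n = 5 each), with the smallest standard error of the 9. In the annotation, 10.3% of its exon bases overlap exons on the other strand.

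Itgb3 (ENSMUSG00000020689, chromosome 11 from 104498826 to 104561302, plus strand) encodes the β3 chain, which also pairs with the αV chain in other cells. It was at 23.46, 95.53, 68.71, 61.29 and 72.48 FPKM in WT and at 18.29, 8.07, 12.54, 12.98 and 21.67 in cKO. Libraries WT 1 and cKO 5 came close to each other, but the labels did not overlap. Itgb3 fell by 2.06 on the log2 scale (SE 0.367, adjusted p = 0.00106), from 64.3 ± 26.2 to 14.7 ± 5.32 FPKM (SD, n = 5 each).

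The receptors that signal through Syk had larger fitted falls than the genes above. Gp6 (ENSMUSG00000078810, chromosome 7 from 4366964 to 4400743, minus strand) encodes GPVI, the platelet's signalling receptor for collagen. It was at 2.76, 10.66, 7.17, 6.31 and 8.92 FPKM in WT and at 0.42, 0.32, 0.39, 0.33 and 0.86 in cKO. Even library WT 1 lay above every library labelled cKO, among which cKO 5 was the highest. Gp6 fell by 3.63 on the log2 scale (SE 0.359, adjusted p = 6.98e-05), from 7.16 ± 2.98 to 0.464 ± 0.225 FPKM (SD, n = 5 each), so that the cKO mean was 6.48% of that of WT. With a pseudocount of 1, which weighs on low values, the fall of Gp6 was by 2.40, level with that of Clec1b (2.40) and smaller than that of Treml1 (2.82). Of all genes tested, 0.624% had a lower log2 fold change.

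Clec1b (ENSMUSG00000030159, chromosome 6 from 129370783 to 129386298, plus strand) encodes a C-type lectin receptor that binds podoplanin. It was at 4.59, 13.09, 11.51, 12.58 and 15.7 FPKM in WT and at 1.54, 0.65, 1.29, 1.01 and 1.82 in cKO. The libraries did not overlap between labels. Clec1b fell by 3.05 on the log2 scale (SE 0.345, adjusted p = 1.11e-04), from 11.5 ± 4.16 to 1.26 ± 0.455 FPKM (SD, n = 5 each). Neighbouring lectin genes share part of its exons, and only 75.8% of its exon bases are its own. Clec9a, on the same strand with 3.59%, was at 6.18 to 10.44 FPKM in WT and 0 to 0.79 in cKO, and Clec1a, on the other strand with 20.65% shared, at 0.5 to 0.86 and 0 to 0.08. Whether counting used strand is not given in the sources used here, and the part of these neighbours in the Clec1b values was not tested.

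Treml1 (ENSMUSG00000023993, chromosome 17 from 48666918 to 48674208, plus strand) encodes TREM-like transcript 1, a receptor kept in α-granules until platelets are activated. It was at 9.98, 51.01, 31.56, 29.39 and 37.08 FPKM in WT and at 3.4, 1.54, 2.4, 3.06 and 6.9 in cKO. All WT libraries were above all of cKO, with WT 1 and cKO 5 nearest to each other. Treml1 fell by 3.16 on the log2 scale (SE 0.454, adjusted p = 3.33e-04), from 31.8 ± 14.8 to 3.46 ± 2.05 FPKM (SD, n = 5 each).

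For the 7 genes without overlap (Gp1ba, Gp6, Gp9, Itga2b, Itgb3, Clec1b and Treml1) a two-sided exact permutation test returned p = 0.00794, the lowest that can be had from 5 libraries a side. For Gp1bb the same exact test returned p = 0.0159.

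**Figure D2:**
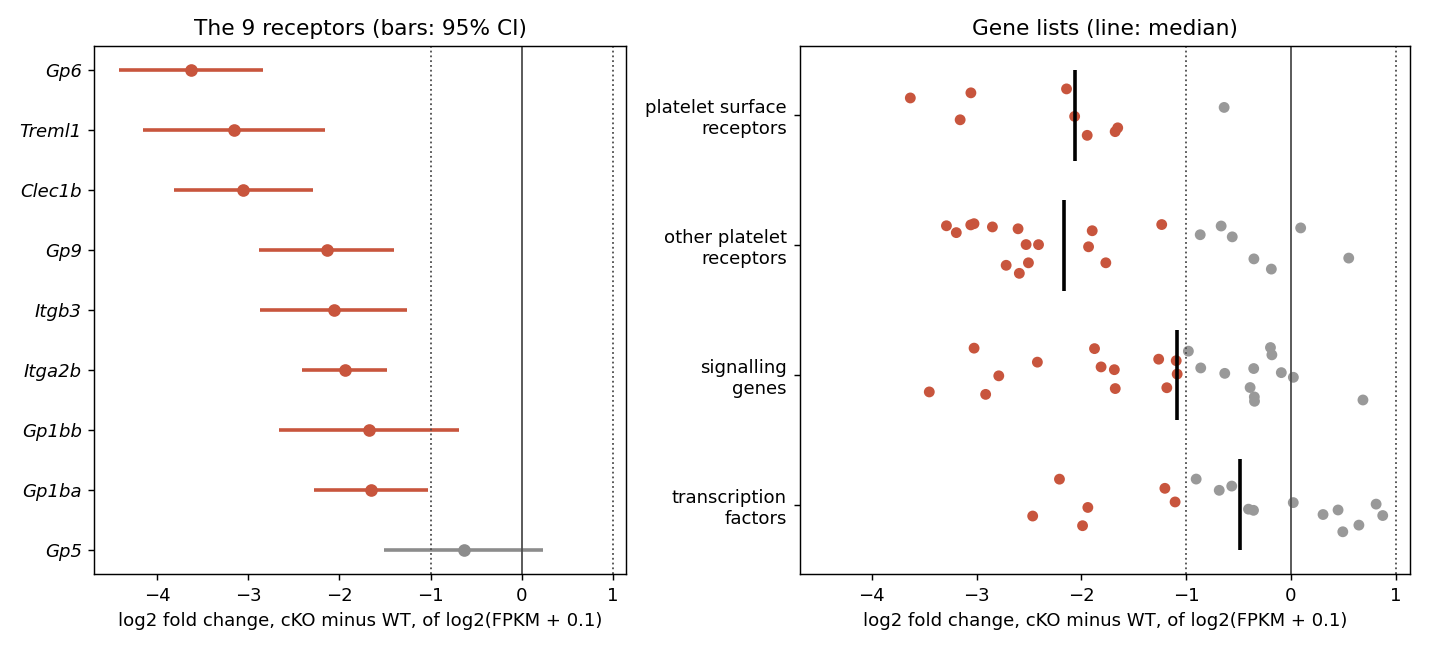
Left, log2 fold changes (cKO minus WT, of log2(FPKM + 0.1)) of the 9 receptor genes with 95% intervals, and right, those of the genes of 4 lists with the median as a black line. Red marks genes called lower and grey those not called, and the dotted lines are the fold limit. Gp6, Treml1 and Clec1b lie at −3.05 or below, Gp5 lies at −0.64 with an interval across 0, and no gene of the 4 lists was called higher.

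The order of the receptor messages, which FPKM allows as a value per length, differed between the labels. Gp1bb shares all of its exon bases with other genes, and Clec1b and Itga2b share some. The part of this in their places was not tested. By mean FPKM in WT it ran from Itgb3 (64.3) and Itga2b (63.3) through Treml1 (31.8), Gp9 (31.6), Gp5 (28.2) and Gp1ba (21.9) to Clec1b (11.5), Gp6 (7.16) and Gp1bb (0.618). The ranges of neighbours overlapped at every step except between Gp6 and Gp1bb, yet Itga2b was above Treml1, Gp5 above Gp1ba, Gp1ba above Clec1b and Clec1b above Gp6 in each of the 5 WT libraries. The order of Itgb3 and Itga2b changed between libraries (Itgb3 higher in 3 of 5), as did that of Treml1 and Gp9 (Treml1 higher in 2 of 5). In cKO the order began with Gp5 (17.5), Itga2b (16.5) and Itgb3 (14.7), and Treml1 (3.46) stood below Gp9 (6.76) and Gp1ba (6.41). Gp5 was higher than Itga2b in 3 of the 5 libraries labelled cKO. It made up 10.8% of the summed mean of the 9 genes in WT and 26% in cKO.

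For chains of one complex, the ratio of their messages was taken in each library as the difference of log2(FPKM + 0.1). The 5 pairs were compared between labels by exact permutation tests with Benjamini-Hochberg adjustment over the 5. Gp5 to Gp9 was at −0.36, −0.26, −0.21, −0.19 and 0.11 in WT and at −0.11, 2.01, 1.59, 2.37 and 0.76 in cKO. The WT libraries were within a narrow band, library WT 1 with them, and 4 of the 5 libraries labelled cKO lay above it while cKO 1 lay in it. The mean was −0.18 ± 0.17 in WT and 1.32 ± 1.003 in cKO (SD, n = 5 each), a difference of 1.504 with exact p = 0.0159 (two-sided) and adjusted p = 0.0794, which misses the threshold. With a pseudocount of 1 the adjusted p was 0.0397, and without library WT 1 the difference was 1.46 (exact test, adjusted p = 0.159).

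Gp1ba to Gp9 was at −0.54, −0.69, −0.68, −0.47 and −0.20 in WT and at −0.64, 0.27, 0.23, 0.63 and −0.63 in cKO. Libraries cKO 2, cKO 3 and cKO 4 were above all of WT, while cKO 1 and cKO 5 were within the WT range (difference 0.49, exact p = 0.127, adjusted p = 0.251). Gp1bb to Gp9 (difference 0.46, exact p = 0.151, adjusted p = 0.251) rests on the few fragments of Gp1bb, whose exon bases are all shared with other genes. This ratio changed sign with a pseudocount of 0.01 and passed with one of 1 (adjusted p = 0.0397). Without library WT 1 the differences of these 2 ratios were 0.48 and 0.44 (exact tests, adjusted p = 0.258 for both).

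Itga2b to Itgb3 was between −0.27 and 0.82 in WT and between −0.25 and 0.44 in cKO (difference 0.12, exact p = 0.627, adjusted p = 0.770). Library WT 1 was at 0.82 and the other WT libraries at −0.27 to 0.01. Gp6 was set against Fcer1g, whose product is the signalling chain of GPVI and of other receptors in myeloid cells. The difference between labels was −0.18 (exact p = 0.770, adjusted p = 0.770), with libraries from −5.49 to −3.21 in WT and from −5.19 to −2.73 in cKO. Its sign changed with single libraries left out. Without library WT 1 the difference was 0.30 for Itga2b to Itgb3 (exact test, adjusted p = 0.258) and −0.55 for Gp6 to Fcer1g (exact test, adjusted p = 0.349).

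**Figure D3:**
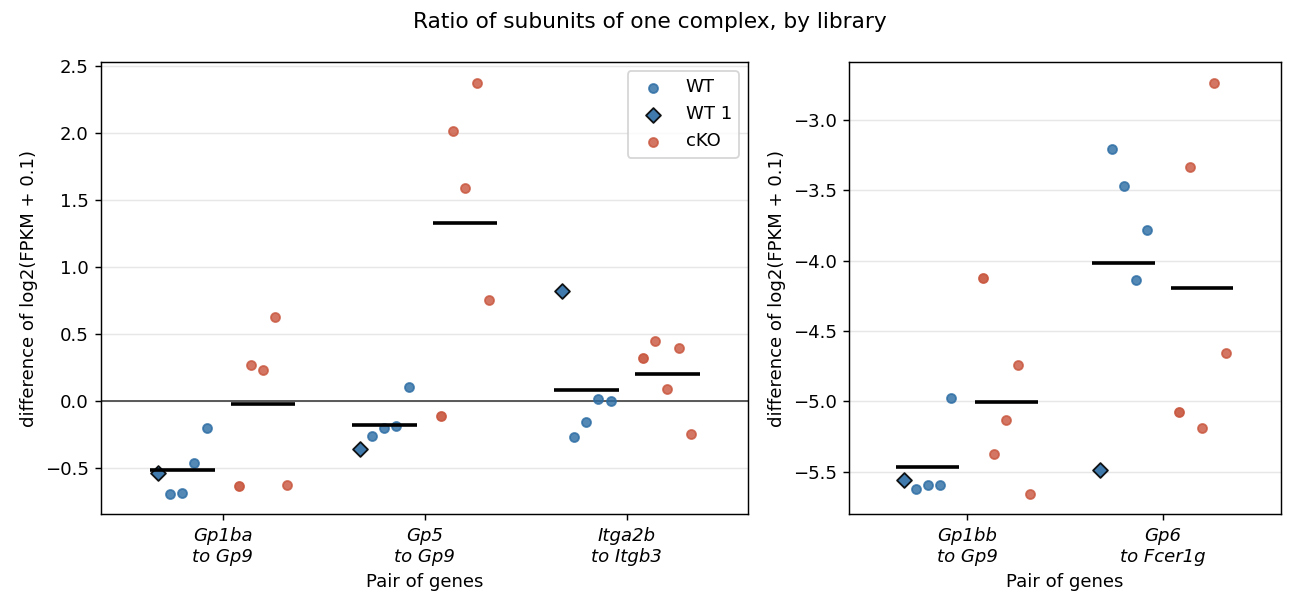
Difference of log2(FPKM + 0.1) between 2 genes of a complex in each library, with WT in blue, library WT 1 as a diamond, cKO in red and bars at the means. For Gp5 to Gp9, libraries cKO 2 to 5 lie at 0.76 to 2.37, above the WT range of −0.36 to 0.11, and library cKO 1 lies at −0.11.

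The receptors were next set against 14 megakaryocyte markers that are not surface receptors, such as the platelet chemokine genes Ppbp and Pf4, which had the highest levels among them. Between the labels, 13 of the 14 markers fell by the same calling rule (16.8% of all genes) and Tmem40 did not pass, with a median log2 fold change of −2.25. Their mean log2(FPKM + 0.1) was 3.70 in library WT 1, 4.83 to 5.36 in the other WT libraries and 2.07 to 3.08 in cKO. Thus library WT 1 was low in these markers as well as in the receptors.

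Relative to this mean, the receptor genes differed among themselves, which is given as a description with no test. Gp9 (−0.12 to 0.29 in WT and −0.01 to 0.26 in cKO), Itgb3 (0.86 to 1.22 and 0.77 to 1.64) and Itga2b (0.95 to 1.68 and 1.16 to 2.03) had overlapping ranges and differences of means of 0.01, 0.09 and 0.21. Gp6, Treml1 and Clec1b were lower relative to the mean of the markers in cKO. That mean covers unlike changes, as log2 fold changes of the 14 markers ran from −0.38 (Tmem40) to −3.36 (Mmrn1). Ppbp, at −3.04, fell about as much as Clec1b, at −3.05. Gp6 was at −2.18 to −1.82 in WT and −4.02 to −3.06 in cKO, and Clec1b at −1.64 to −1.01 and −2.68 to −1.92, both without overlap, whereas Treml1, at −0.36 to 0.32 and −1.55 to −0.20, overlapped. Gp5 was higher relative to the markers, at −0.39 to 0.09 in WT and at −0.12, 2.17, 1.74, 2.40 and 1.01 in cKO. Gp1ba was at −0.57 to −0.32 in WT and spread from −0.65 to 0.65 in cKO.

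**Figure D4:**
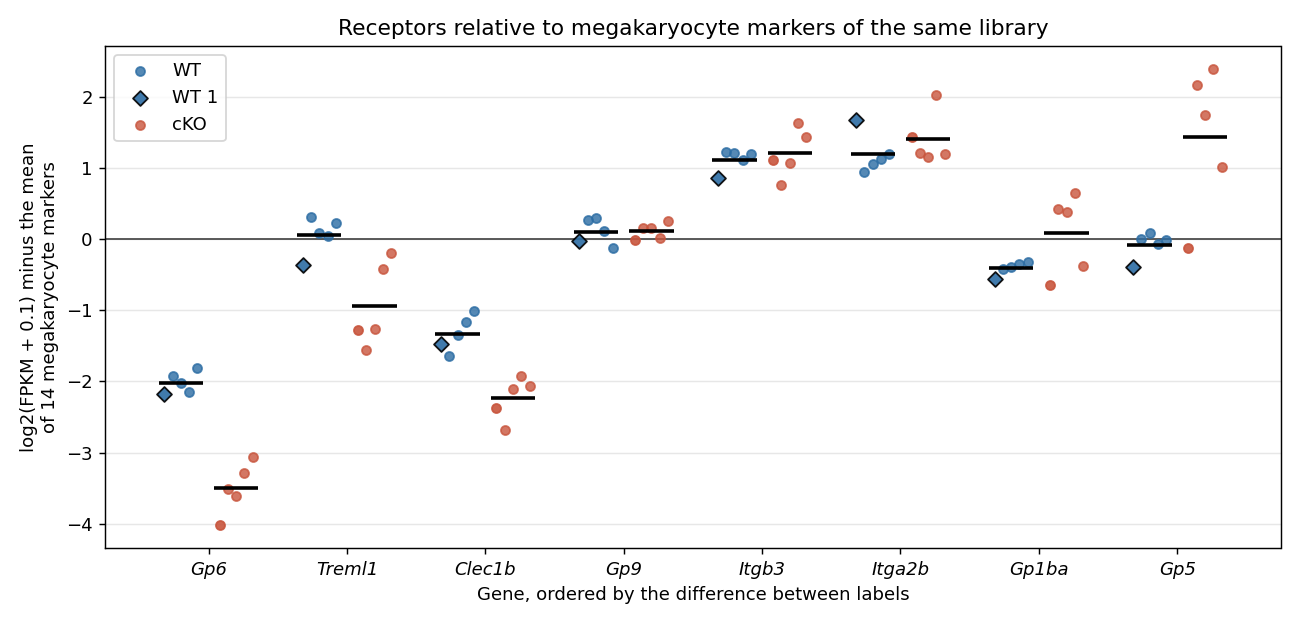
log2(FPKM + 0.1) of 8 receptor genes minus the mean of 14 megakaryocyte markers of the same library (Gp1bb, near its floor, is not drawn), ordered by the difference between labels, with WT in blue, library WT 1 as a diamond, cKO in red and bars at the means. Library WT 1 lies within the range of the other WT libraries for Gp9 and Clec1b, above it for Itga2b and below it for the other genes drawn. Gp6 and Clec1b are separate downward in cKO, and 4 of 5 cKO points of Gp5 are above all of WT.

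Of 22 other receptors of platelets, 15 fell and 0 rose by the calling rule (16.8% and 4.6% of all genes), and the median log2 fold change was −2.17. The most abundant of them was Itgb1, the β1 integrin chain found on most cells, at 92.08 to 108.64 FPKM in WT and 86.6 to 131.59 in cKO (adjusted p = 0.477). Next came the tetraspanin gene Cd9, which fell by 2.50, from 58.8 ± 16.2 to 10.6 ± 4.13 FPKM (SD, n = 5 each). The largest falls were those of P2ry12, the ADP receptor that clopidogrel blocks (3.29 on the log2 scale), of Pecam1, an inhibitory adhesion receptor (3.19), and of Cd226, an adhesion receptor (3.06). P2ry12 went from 5.54 ± 1.84 to 0.568 ± 0.391 FPKM, Pecam1 from 18.8 ± 1.97 to 2.47 ± 1.72 and Cd226 from 13.8 ± 5.01 to 1.65 ± 0.973 (SD, n = 5 each). Pecam1 differed from the 9 receptor genes in that library WT 1, at 19.26 FPKM, was among the other WT libraries (15.99 to 21.44).

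Of 25 genes of signalling below these receptors, 13 fell and 0 rose by that rule (16.8% and 4.6% of all genes), and the median was −1.09. Rap1b, the small GTPase that switches on αIIbβ3, and Flna, the filamin that ties GPIbα to actin, were the most abundant. Rap1b fell by 1.09 from 156 ± 26.5 to 73.1 ± 8.25 FPKM, and Flna by 1.26 from 122 ± 13.2 to 50.8 ± 7.20 (SD, n = 5 each). The largest falls were those of Fcer1g (3.45 on the log2 scale, to 13.2 ± 9.35 from 109 ± 19.4 FPKM), of Rasgrp2, the exchange factor for Rap1 (3.02), and of Vav3 (2.91). With median-ratio scaling 11 fell, Rap1b not among them. Many of these genes also serve other blood cells.

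Of 18 transcription factors of the megakaryocyte lineage, 6 fell and 0 rose by the calling rule (16.8% and 4.6% of all genes), and the median was −0.48. On adjusted p alone, which called 28.3% of all genes lower and 16.7% higher, 11 were lower and 6 higher (Gata1, Gfi1b, Mafk, Tal1, Zfpm1 and Ldb1), so that the list was split. Mef2c, a MADS-box factor, fell by 2.46 and Fli1, an ETS factor of megakaryocytes, by 2.21. Fli1 was at 19.54 to 28.11 FPKM in WT and 2.5 to 8.47 in cKO. The most abundant, the adaptor gene Lmo2, was at 138 ± 7.19 and 140 ± 13.2 FPKM (SD, n = 5 each, adjusted p = 0.819). Gata1, a GATA factor of both erythroid cells and megakaryocytes, was at 48 to 77.36 FPKM in WT and 92.03 to 109.38 in cKO, a log2 fold change of 0.81 (adjusted p = 3.60e-04) below the fold limit.

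Messages of the receptors' ligands were unevenly present. Vwf, the ligand of GPIb and itself a megakaryocyte product, fell by 2.61, from 10.8 ± 4.08 to 1.69 ± 0.740 FPKM, Thbs1, the thrombospondin stored in platelets, by 1.70, from 58.6 ± 29.5 to 16.7 ± 7.996, and Fn1, for fibronectin, by 5.58, from 71.1 ± 32.9 to 3.08 ± 4.53 (SD, n = 5 each). Library WT 1 had the highest Fn1 of all, at 104.92 FPKM. The fibrinogen genes Fga, Fgb and Fgg were listed at 0 in every WT library and reached at most 0.02 FPKM in cKO, and Pdpn, for podoplanin, at most 0.03. The collagen genes were low and went in different directions, Col1a1 falling by 2.78 from 1.5 ± 1.36 to 0.114 ± 0.152 FPKM and Col1a2 rising by 1.74 from 1.17 ± 0.757 to 4.51 ± 3.05 (SD, n = 5 each), while Col3a1 was at most 0.13.

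Of the other genes, 12345 averaged 1 FPKM or more. The nearest to the mean centred profile of the 9 receptors over the 10 libraries, by root mean square distance on the log2 scale, were Pls1 (0.148), Rbpms2 (0.161), Kalrn (0.205), Maged2 (0.217), Gng11 (0.229), Lrrc32 (0.246), F2rl2 (0.254) and F5 (0.262). The receptors' own distances to that mean ran from 0.176 for Itgb3 and 0.222 for Gp9 to 0.729 for Gp6 and 0.958 for Gp5. The pairs of receptors nearest to each other were Gp9 with Itgb3 (0.261), Itga2b with Itgb3 (0.331) and Clec1b with Treml1 (0.335), and the farthest were Gp5 with Gp6 (1.601). For single receptors the nearest genes were Kalrn for Gp1ba (0.213), F11r for Gp1bb (0.281), Ly6g6f for Gp6 (0.328), Pde5a for Gp9 (0.185), Serpine2 for Itga2b (0.140), Rbpms2 for Itgb3 (0.134), Gm13431 for Clec1b (0.287) and Mmrn1 for Treml1 (0.273). For Gp5 it was Tmem158 (0.325), itself not called between labels (adjusted p = 0.260). All of these profiles span the same 10 libraries and both labels, and the distances are a description with no test.

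Markers of other cell types also differed between the labels, and not all in the direction of the receptors. The calling rule used for the counts below called 16.8% of all genes lower and 4.6% higher. The summed FPKM of 10 erythroid markers, led by Car1 and Hbb-bs, was 1118 to 2060 in WT and 3719 to 6409 in cKO, with 6 called higher and 0 lower. That of 8 monocyte and dendritic cell markers, led by Lyz2 and F13a1, was 790.4 to 1409 in WT and 4.99 to 236.2 in cKO, with all 8 called lower. That of 8 neutrophil markers, led by Mpo and Elane, was 2394 to 3254 in WT and 133.0 to 963.2 in cKO apart from library cKO 1 (2473), with 3 called lower. The log2 fold changes were negative for 5 of the 8, and Ltf, Camp and Ngp went up without being called. In library cKO 1, S100a9 (894.75 FPKM), S100a8 (442.9) and Ngp (317.58) were the highest of the list. Mpo (277.33) and Elane (183.65) were below every WT library there. Of 7 mast cell and basophil markers, led by Prss34 and Mcpt8, 5 were called lower and 1 higher (664.1 to 1328 in WT and 79.04 to 572.6 in cKO). Of 8 stem and early progenitor markers, led by Kit and Cd34, 6 were called lower (87.81 to 119.6 in WT and 22.26 to 45.34 in cKO). Endothelial markers, led by Egfl7 and Plvap, summed to 11.75 to 15.37 in WT and 11.4 to 18.96 in cKO, with 3 of 7 called lower. The log2 fold changes were negative for 6 of the 7. Egfl7 went up by 0.89, from 5.11 to 6.92 FPKM in WT to 7 to 14.81 in cKO, short of the fold limit, and weighs most in the sum. Stromal markers, led by Pdgfrb and Col1a2, summed to 5.23 to 13.32 in WT and 2.95 to 10.04 in cKO. Of the 8, only 5 were high enough to be tested, with 3 called lower and 1 higher. Kit, which marks Lin− progenitors, was at 36.56 to 54.36 FPKM in WT and 18.73 to 31.11 in cKO. Its log2 fold change was −0.86 (limma, adjusted p = 0.0017), short of the fold limit. None of these lists had a marker at 0 in all 10. Library WT 1, low in the receptors and in the megakaryocyte markers, lay within the range of the other WT libraries for the erythroid, monocyte, neutrophil and stem cell sums. For the mast cell and basophil sum it was the highest WT library, at 1328 against 664.1 to 1278 in the others. The part of these shifts in the receptor values was not tested.

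**Figure D5:**
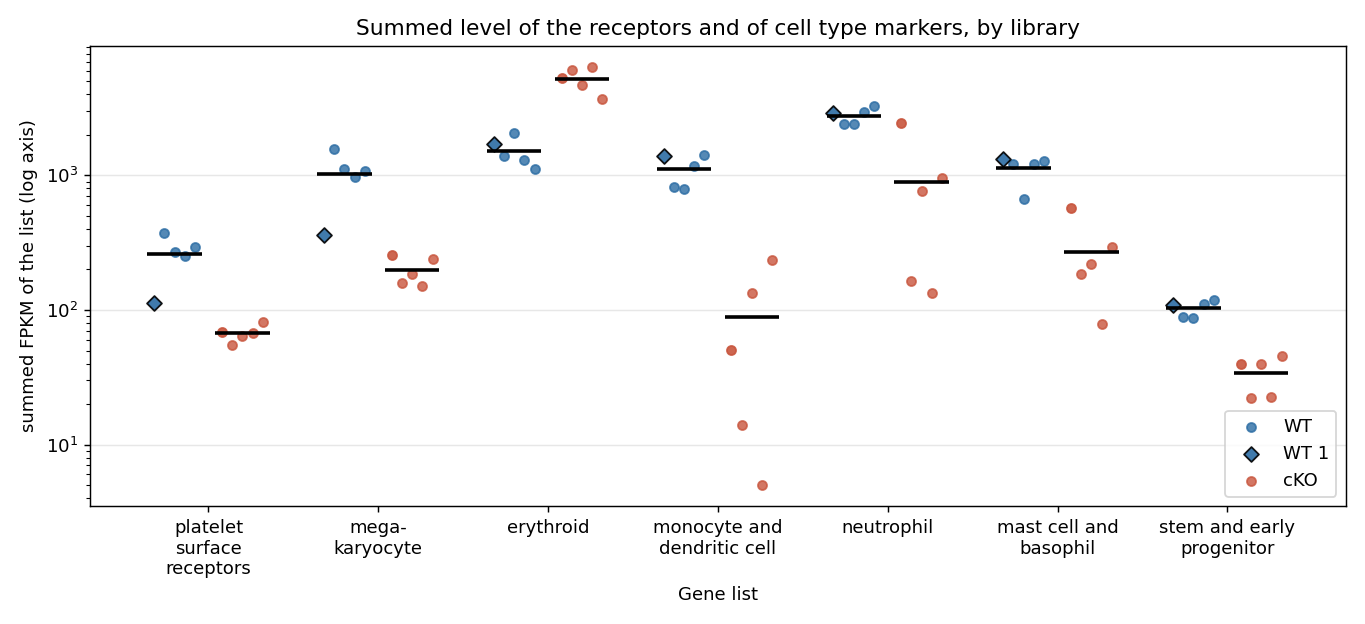
Summed FPKM of the 9 receptor genes and of the markers of 6 cell types in each library on a log axis, with WT in blue, library WT 1 as a diamond, cKO in red and bars at the means. The receptor sum is 113.4 in library WT 1, 252.3 to 371.3 in the other WT libraries and 54.82 to 81.23 in cKO, and the erythroid sum is higher in every library labelled cKO.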

How the data were processed

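RNA-seq of Lin− bone marrow cells, isolated with a lineage depletion kit, gave 5 WT and 5 cKO libraries. Reads were trimmed with cutadapt 1.9.1 (quality under 20 removed), aligned to GRCm39 with HISAT2 2.0.1 and counted with HTSeq 0.6.1, as the submitters' processing notes and the study's methods state. The table the authors deposited holds 1 FPKM value for each gene in each library, with 2 decimals. FPKM are not counts, so a two-sided limma 3.58.1 test with a mean-variance trend (R 4.3.3) was applied to log2(FPKM + 0.1). The 18742 genes that averaged 0.1 FPKM or more entered, and p-values were adjusted over all of them (Benjamini-Hochberg). This scale understates changes of low genes. A call needed an adjusted p below 0.05 together with a change of 2-fold or more. Single genes and ratios were also compared by exact permutation tests (Python 3.11.15, scipy 1.17.1). The members and all gene lists were chosen with earlier results of these data known.

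Symbols, positions and exon lengths came from a GENCODE annotation of GRCm39, which held the identifier of 54749 of the 55359 genes. Depth was found from low values of genes with 1 transcript, of which 96.8% to 97.5% per library came out whole within 0.2 of a fragment. Fragment numbers of single genes are approximate, and intervals and floors cover counting error only. A gene of 1000 bases at 3 fragments was at 0.160 to 0.217 FPKM. No 2 libraries of a label were alike within sampling noise (lowest chi-square per degree of freedom 4.02). Some markers and transcription factors were named for their direction or level. The other named genes were the 9 receptors, genes overlapping them, Dhx9, Xist and Ddx3y, the ligands, in each list the 2 highest by mean FPKM and the 3 largest falls, the 2 highest of each marker list, and the genes nearest in profile. A gene that this rule names is not reported here. Alternatives were other pseudocounts, low-value filters and scalings, no trend, a replicate block, adjusted p alone, an Xist covariate, libraries with Xist under 1 FPKM only, and each library left out. The steps were tested on simulated data.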

Additional observations from a re-analysis of the deposited data

Results flagged for a closer look

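Each receptor gene and each ratio was examined within each label by Dixon's test for a library far from the other 4. Of 28 such groups, 4 had one, where chance at 1 in 20 gives 1.4, and groups that share a gene are not independent. Gp1bb was at 0.38 FPKM in library cKO 1 against 0.03 to 0.09 in the others of its label. Gp6 was at 0.86 FPKM in library cKO 5 against 0.32 to 0.42. The log2 ratio of Gp1bb to Gp9 was −4.97 in library WT 5 against −5.63 to −5.56. The log2 ratio of Itga2b to Itgb3 was 0.82 in library WT 1, while the rest of that label lay from −0.27 to 0.01.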

How the results depend on the processing

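The count of receptor genes called lower was 8 with each library left out in turn, and 7 or 8 under the other settings, except that it was 5 with only the libraries with Xist under 1 FPKM. There the counts of all genes were 536 higher and 2261 lower. With each library left out, the other receptors called lower numbered 14 to 16, the signalling genes 13 to 14, the transcription factors 6 to 7, and all genes 2892 to 3268 lower and 762 to 948 higher. Over all genes, a pseudocount of 1 gave 356 higher and 1486 lower, a mean of at least 1 FPKM 462 and 1827, quantile normalization 1581 higher and adjusted p alone 3138 and 5300, with 11 transcription factors lower and 6 higher.

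Under the 22 other settings every log2 fold change of the 9 genes was negative, Gp1bb having no value where a mean of at least 1 FPKM was required. The ratio of Gp5 to Gp9 differed by 1.24 to 1.86 with each library left out and by 1.39 with a pseudocount of 1 (adjusted p = 0.0397). That of Gp1bb to Gp9 ranged from 0.24 to 0.63 with libraries left out, but was −0.27 at a pseudocount of 0.01 and 1.49 at 1 (adjusted p = 0.0397), the pseudocount being close to or above the FPKM of Gp1bb. That of Gp6 to Fcer1g was −0.55 to 0.0664 with libraries left out, turning positive without WT 2 (0.02), cKO 1 (0.04) or cKO 3 (0.0664), and was 0.89 with a pseudocount of 1. The other ratios kept their sign, at 0.33 to 0.64 for Gp1ba to Gp9 and 0.03 to 0.30 for Itga2b to Itgb3 with libraries left out. Other causes of these changes were not tested.

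The labels number the libraries of both groups 1 to 5 without calling them pairs. Deviations of libraries with the same number correlated at −0.01 to 0.12 over all genes, although 3 of 5 WT libraries correlated best with their own number. These values do not settle whether the numbers are pairs. The numbers were not taken as pairs in the main fit, and a fit with them as a block is given beside it. With a replicate block, 8 receptors, 15 other receptors, 13 signalling genes and 6 transcription factors were called lower, as without it, and 857 genes were higher and 3107 lower. Gp5 then had an adjusted p of 0.00569, still short of the fold limit. Gp1bb is limited by its few fragments, 1 to 11 in each library labelled cKO.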
